A study of Mus musculus with 6 samples.

Results

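Transcripts of 10 genes of MHC class I antigen presentation were followed in 6 mouse cells, 3 circulating tumor cells (CTCs), taken from blood, and 3 tumor cells. The members were the rows of the table whose gene symbol is B2m, H2-K1, H2-D1, H2-T23, Tap1, Tap2, Tapbp, Psmb8, Psmb9 or Psmb10, and all 10 were found among 44804 rows kept. Mice 1157, 1168 and PDGF1 each gave 1 CTC and 1 tumor cell, and the titles of the tumor cells carry the letters GBM. The labels call each CTC a single cell and do not use that word for the tumor cells, which the series text counts as single cells too. Strain, genotype, age and the way the tumors arose are not stated in the sources used here, so neither are the H2 alleles of these mice.

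Class I molecules carry peptides cut from proteins inside the cell to its surface, where CD8 T cells read them and natural killer cells sense their absence. The proteasome cuts the proteins, and interferon gamma brings in the immunoproteasome subunits Psmb8, Psmb9 and Psmb10 in place of the constitutive Psmb5, Psmb6 and Psmb7. The Tap1 and Tap2 proteins form the pump that moves peptides into the endoplasmic reticulum, and Tapbp (tapasin) holds the pump to waiting heavy chains. H2-K1 and H2-D1 encode classical heavy chains, H2-T23 encodes Qa-1, a nonclassical heavy chain read by inhibitory receptors of natural killer cells, and B2m encodes beta-2-microglobulin, the light chain they share. Neurons and glia of the normal brain are known for low class I levels, and microglia for higher ones.

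Both cells of mouse 1168 held nearly the whole pathway. There H2-T23, B2m, H2-K1 and Psmb8 were lower in the CTC by more than 1 on the log2 scale and Psmb9 was higher by more than 1, with 1 library on each side, while H2-D1 and Tap1 differed by less. In mouse 1157 the CTC held Psmb8 at 740 FPKM (fragments per length of transcript and per total of mapped fragments) and H2-K1 at 14.04, against 0.729 and 0.198 in its tumor cell. In mouse PDGF1 no member stood above background, the 99th percentile of olfactory and vomeronasal receptor genes, in either cell. Over the 3 mice the test called no member between CTCs and tumor cells, with or without the mouse as a block. That does not show that levels were alike.

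The start regions of 5 members are shown because they belong to the heavy chains and B2m, on which the mouse 1168 results turn, and to Tap1, whose start lies beside that of Psmb9. Each is the RefSeq window on GRCm38.p6 from 250 bases before to 50 bases after the gene's start, 5′ to 3′ on the gene's strand, and 9 of the 10 members matched a window (Tap2 is named only). Capitals mark 4 motifs searched on both strands: AANNGAAA, the core bound by interferon regulatory factors; CCAAT, the box bound by NF-Y; and GGGATTCCC and GGGANTTTC, both cores of forms of the NF-kB site. Where the motif lies on the other strand the capitals read as its reverse complement.
Tap1, chr17:34187306-34187605, plus strand: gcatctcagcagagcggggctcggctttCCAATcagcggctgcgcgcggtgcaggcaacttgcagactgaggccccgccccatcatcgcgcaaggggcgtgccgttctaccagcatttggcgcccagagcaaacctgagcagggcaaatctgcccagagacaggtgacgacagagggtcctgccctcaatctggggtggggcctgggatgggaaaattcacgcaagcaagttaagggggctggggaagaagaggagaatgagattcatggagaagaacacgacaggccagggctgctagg
B2m, chr2:122147437-122147736, plus strand: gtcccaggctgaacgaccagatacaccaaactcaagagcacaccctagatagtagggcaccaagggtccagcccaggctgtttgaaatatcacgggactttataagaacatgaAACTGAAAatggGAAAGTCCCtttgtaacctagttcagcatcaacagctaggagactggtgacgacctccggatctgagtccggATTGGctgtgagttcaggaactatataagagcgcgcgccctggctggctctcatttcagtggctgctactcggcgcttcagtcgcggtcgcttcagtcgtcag
H2-K1, chr17:34000298-34000597, minus strand: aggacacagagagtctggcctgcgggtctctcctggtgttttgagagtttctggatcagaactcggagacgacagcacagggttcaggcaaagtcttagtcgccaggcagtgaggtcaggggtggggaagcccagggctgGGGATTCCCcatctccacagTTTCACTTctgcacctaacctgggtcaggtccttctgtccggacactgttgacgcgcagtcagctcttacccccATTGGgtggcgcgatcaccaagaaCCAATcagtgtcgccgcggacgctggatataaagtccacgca
H2-D1, chr17:35262844-35263143, plus strand: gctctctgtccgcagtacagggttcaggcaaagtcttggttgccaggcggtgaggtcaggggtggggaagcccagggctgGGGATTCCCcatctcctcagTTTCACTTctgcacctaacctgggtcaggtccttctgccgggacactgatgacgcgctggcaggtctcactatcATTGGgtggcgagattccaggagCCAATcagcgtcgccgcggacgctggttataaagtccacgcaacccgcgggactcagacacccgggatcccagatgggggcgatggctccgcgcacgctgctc
H2-T23, chr17:36032652-36032951, minus strand: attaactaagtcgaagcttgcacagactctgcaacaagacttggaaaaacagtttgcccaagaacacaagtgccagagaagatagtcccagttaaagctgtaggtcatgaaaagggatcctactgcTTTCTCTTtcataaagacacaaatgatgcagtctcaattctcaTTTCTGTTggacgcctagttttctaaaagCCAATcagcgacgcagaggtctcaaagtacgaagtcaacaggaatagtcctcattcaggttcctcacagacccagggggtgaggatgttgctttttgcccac

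The interferon regulatory factor core was in the windows of B2m, H2-K1, H2-D1 and H2-T23, 4 of 9 members matched, and in 23.9% of all 32851 windows. CCAAT was in 7 of 9, all but Psmb8 and Psmb10, and in 37.4% of all windows. GGGATTCCC was in H2-K1 and H2-D1 alone among members and in 0.353% of all windows, and GGGANTTTC in B2m alone and in 1.11%. No marked motifs overlapped one another. The windows of H2-K1 and H2-D1 were 88.3% identical over 239 aligned bases. Psmb9 starts on the minus strand opposite Tap1, and 275 bases of its window, chr17:34187306-34187580, are the same bases as those of Tap1 read from the other strand. The motifs were chosen with these sequences in view, and a match describes letters, not binding.

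Of the 10 members, 8 lie in the H2 complex on chromosome 17 (GRCm38, GENCODE M21). From low to high coordinate these are Tapbp, H2-K1, Psmb9, Tap1, Psmb8, Tap2, H2-D1 and H2-T23. Psmb9 (chr17:34181987-34187764, minus strand), Tap1 (chr17:34187553-34197225), Psmb8 (chr17:34197721-34201454) and Tap2 (chr17:34203527-34216321) stand side by side. The annotated ends of Psmb9 and Tap1 overlap by 212 bases on opposite strands. B2m lies on chromosome 2 and Psmb10 on chromosome 8.

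Some heavy chain sequence is shared with other genes, and the sources used here do not say what became of reads that fit more than 1 gene. Of all 50-base stretches in the longest coding transcript, 28.8% in H2-T23, 14.3% in H2-D1 and 8.79% in H2-K1 also occur in transcripts of other genes on the same strand. In H2-K1 most of these are shared with H2-D1 (6.94% of all its stretches). Values of the heavy chains are uncertain to that extent. No such stretch was shared for B2m, Psmb8, Psmb9 or Psmb10, and at most 2.001% for Tap1, Tap2 and Tapbp. Those figures hold for the reference alleles. On the opposite strand the share reached 20.04%, in Tapbp, which matters only if strand was not used in counting.

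The 6 libraries differed widely in content. The summed FPKM ranged from 46973 to 727351, and genes at 1 FPKM or more from 1486 to 11239. Olfactory and vomeronasal receptor genes, whose proteins work in the nose, gave the background: their 99th percentile over 1789 genes lay at 0.885, 0.167 and 4.03 FPKM for the 1157, 1168 and PDGF1 CTCs, and at 1.58, 1.52 and 7.02 FPKM for the matching tumor cells. Of 10 glioma and oligodendrocyte progenitor markers, 10 reached 1 FPKM in the 1168 CTC against 9 for its tumor cell. In the 1157 CTC 4 did, against 3 for its tumor cell, and 0 in either PDGF1 cell. The 3 of the 1157 tumor cell, Olig2, Nkx2-2 and Bcan at 1.575, 1.46 and 1.26 FPKM, lay under its receptor level of 1.577. So did Pdgfra in the 1168 tumor cell, at 1.42 against 1.52. The label of tumor cell thus has its glioma markers in mouse 1168 mainly. The 1168 tumor cell also held microglia and macrophage markers summing to 2495 FPKM and leukocyte markers to 319, against 254 for the glioma list. In the 1168 CTC these sums were 244, 6.58 and 492. The cells of mice 1157 and PDGF1 hold few glioma marker transcripts, and results that rest on those cells are given by mouse.

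The members followed that split. Above the receptor level were 4 members for the 1157 CTC against 3 for its tumor cell, 9 for the 1168 CTC against 9 for its tumor cell, and 0 for either PDGF1 cell. At 1 FPKM or more there were 4, 9 and 1 across these CTCs, against 4, 9 and 4 across the tumor cells. The 10 members together took 0.323% of the summed FPKM in the 1157 CTC, 0.166% in the 1168 CTC and 0.00602% in the PDGF1 CTC, against 0.0153%, 0.534% and 0.0207% for the matching tumor cells. The highest share within a mouse thus lay in the 1157 CTC, through Psmb8, and in the tumor cells of the other mice.

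**Figure D1:**
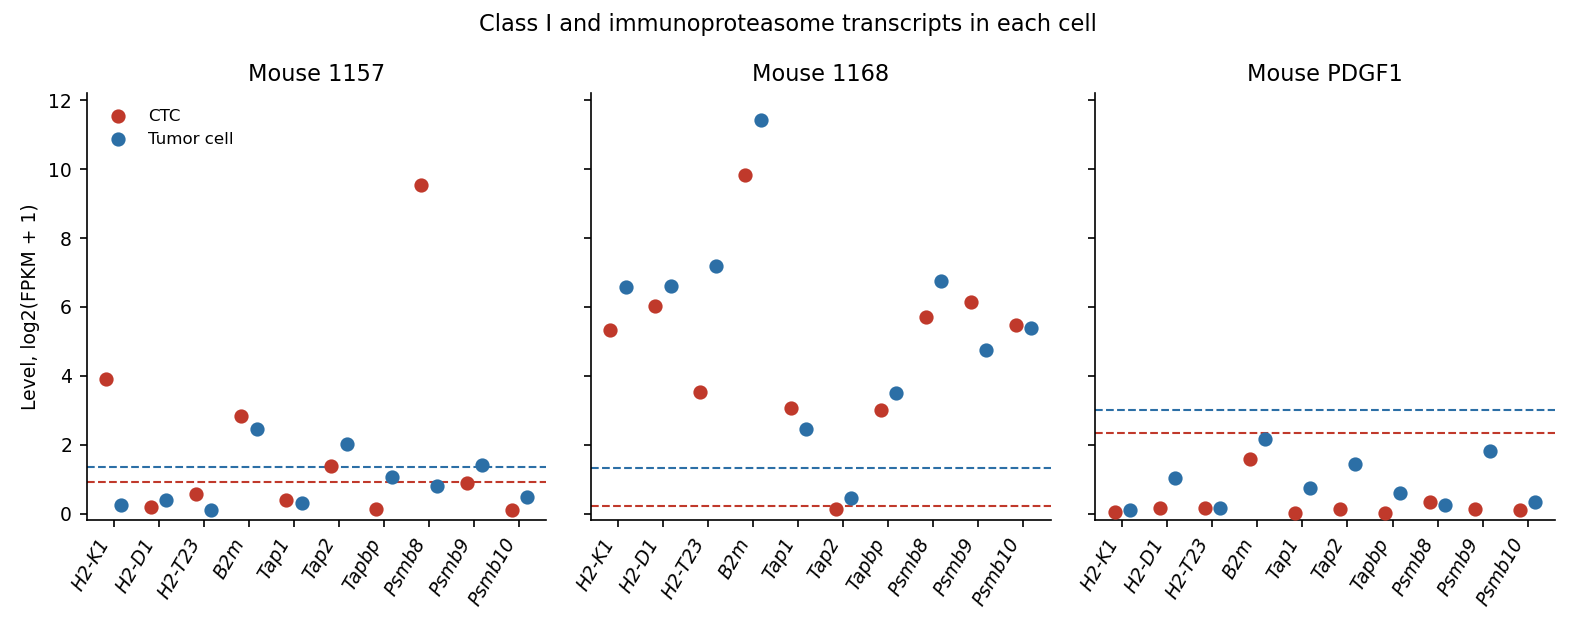
Level of each member, log2(FPKM + 1), in the CTC (red, left) and the tumor cell (blue, right) of each mouse; each point is 1 cell, and dashed lines mark the receptor level (99th percentile) of each cell. In mouse 1168, 9 members lie above both lines and Tap2 below them; in mouse PDGF1 all 10 lie below.

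Among the heavy chains, H2-K1 was at 14.04, 39.1 and 0.0336 FPKM across the CTCs from 1157, 1168 and PDGF1, against 0.198, 94.2 and 0.0704 across the matching tumor cells. The CTC was the higher cell in mouse 1157, the lower one in mouse 1168, and in mouse PDGF1 both lay under background. Mean levels on the log2(FPKM + 1) scale were 3.09 ± 2.73 in CTCs and 2.31 ± 3.69 in tumor cells (SD, n = 3 each), a difference of 0.78 (SE 2.64). The groups overlap.

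H2-D1 was at 0.134, 64.4 and 0.109 FPKM in the CTCs, against 0.317, 97.4 and 1.07 in the tumor cells, in the same order of mice. It was the lower in the CTC of all 3 mice, but above background in mouse 1168 only, and there by 0.59 on the log2 scale. Over the mice its levels were 2.12 ± 3.39 in CTCs and 2.69 ± 3.42 in tumor cells (SD, n = 3 each), a difference of -0.57 (SE 2.35). In mouse 1157, H2-D1 thus lay under background in the CTC that held H2-K1 at 14.04.

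H2-T23 had the largest difference of any member in mouse 1168, 10.6 FPKM in the CTC against 144 for the tumor cell, which makes it 13.6-fold lower. In the other mice it stayed under background, at 0.489 and 0.109 in the CTCs of mice 1157 and PDGF1 against 0.0684 and 0.114 in their tumor cells. Being at 1 FPKM in 2 cells only, it was not tested. The whole gene lies inside A930015D03Rik, an antisense RNA gene picked out here after its values were seen. That RNA was at 25.7 FPKM in the 1168 CTC, against a listed 3e-89, in effect 0, in the tumor cell. The library kit marks strand, per the labels' protocols, but whether the authors' quantification used it is not stated in the sources used here, so reads of the gene and its antisense partner cannot be told apart.

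B2m, the light chain, had the highest level of all members in 5 of the 6 cells, the 1157 CTC being the exception. It was at 6.17, 917 and 2.01 FPKM across the CTCs from 1157, 1168 and PDGF1, against 4.46, 2761 and 3.50 across the matching tumor cells. In mouse 1168 it ranked 148 among all rows in the CTC, against 34 for the tumor cell, and was 3.01-fold lower in the CTC. In mouse PDGF1 even B2m lay under background, the 99th percentile of receptor genes. It lay above their 95th percentile, 0.0895 FPKM in that CTC and 0.886 in that tumor cell. Levels over the mice were 4.76 ± 4.45 in CTCs and 5.35 ± 5.27 in tumor cells (SD, n = 3 each), a difference of -0.59 (SE 4.42). Those SDs hold the gap between mouse 1168 and the other mice, and do not measure the spread of the difference within mice. In a fit blocked on mouse the SE was 1.73.

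The pump genes did not go together. Tap1 was at 0.321, 7.46 and 0.0192 FPKM across the CTCs from 1157, 1168 and PDGF1, against 0.240, 4.49 and 0.674 across the matching tumor cells. Only the cells of mouse 1168 held it above background, with the CTC 1.66-fold higher. Tap2, its partner in the pump, was at 1.61, 0.0933 and 0.0928 FPKM in the CTCs, against 3.08, 0.375 and 1.71 in the tumor cells. Both cells of mouse 1168 thus held Tap1 and had Tap2 under background, while both cells of mouse 1157 held Tap2 and had Tap1 under it. That depends on the background taken: above the 95th percentile of receptor genes lay also Tap2 in the 1168 CTC (0.0933 against 0.0422 FPKM) and Tap1 in the 1157 CTC (0.321 against 0.207 FPKM). Tap2 was lower in the CTC of 3 of 3 mice, by 0.65, 0.33 and 1.31 on the log2 scale, with means of 0.55 ± 0.72 in CTCs and 1.31 ± 0.79 in tumor cells (SD, n = 3 each). That difference of -0.76 was smaller than its limma SE of 0.809, which rests on variance pooled over genes. It was not smaller than the limma SE of 0.589 in a fit blocked on mouse. Neither fit called Tap2, and it was above background in mouse 1157 alone. Tap1 was not tested, since 2 cells held it at 1 FPKM.

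Tapbp, the tapasin that joins pump and heavy chain, was at 0.0946, 7.08 and 0.0172 FPKM in the CTCs, against 1.10, 10.4 and 0.520 in the tumor cells. It too was lower in the CTC of 3 of 3 mice, and above background in mouse 1168 only. The difference over the mice was -0.67 (SE 1.31), with means of 1.06 ± 1.70 in CTCs and 1.73 ± 1.56 in tumor cells (SD, n = 3 each).

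Psmb8, which stands in for Psmb5 in the immunoproteasome, was at 740, 50.8 and 0.275 FPKM across the CTCs from 1157, 1168 and PDGF1, against 0.729, 106 and 0.186 across the matching tumor cells. The CTC of mouse 1157 stands apart from all other cells: Psmb8 ranked 57 of all rows there. In mouse 1168 the order was the other way, with Psmb8 2.09-fold lower in the CTC. Its mean levels were 5.19 ± 4.61 in CTCs and 2.59 ± 3.60 in tumor cells (SD, n = 3 each), a difference of 2.60 (SE 3.75). Without both cells of mouse 1157 that difference turned to -0.47.

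Psmb9, which stands in for Psmb6, was at 0.839, 69.9 and 0.0958 FPKM in the CTCs, against 1.67, 25.8 and 2.49 in the tumor cells. It was the one member higher in the 1168 CTC by over 1 on the log2 scale, and lower in the CTC of the other mice, where only the 1157 tumor cell lay above background. Levels over the mice were 2.39 ± 3.28 in CTCs and 2.66 ± 1.82 in tumor cells (SD, n = 3 each), a difference of -0.27 (SE 2.46). Psmb10, which stands in for Psmb7, was at 0.0686, 43.7 and 0.0645 FPKM in the CTCs, against 0.409, 41.3 and 0.270 in the tumor cells. The cells of mouse 1168 had nearly equal levels of it, and the other cells had it under background. It was not tested, being at 1 FPKM in 2 cells.

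Across all genes limma called 0 of 4165 tested, a share of 0%, with 7 at an unadjusted p under 0.05. Of the members, 7 of 10 met the filter of 1 FPKM or more in at least 3 cells, and 0 were called, each with an adjusted p of 0.99994 by limma. The smallest unadjusted p among them was that of Tap2, at 0.346 by limma. These p-values do not show that levels were alike, since the SEs above reach 4.42 on the log2 scale. A fit blocked on mouse gave 1 call by limma, which is no member, and 217 genes had an unadjusted p under 0.05. In that paired fit the SE was 1.73 for B2m and 1.38 for Psmb8, whose adjusted p of 0.935 by limma was the smallest among members. All 3 CTCs lay above all tumor cells for 0.264% of tested genes and below them for 1.3%, and for 0 members in either direction. H2-D1, Tap2 and Tapbp were lower in the CTC of 3 of 3 mice, and 0 members were higher in 3 of 3. The share of all tested genes was 15.3% for the first and 7.39% for the second. Which members those are depended on the scaling. With quantile normalization Tap2 turned to 0.02 in mouse 1168 and Psmb10 came to -0.64, -0.27 and -0.19 in mice 1157, 1168 and PDGF1, so that the count was again 3. With the cells rescaled to a common sum, B2m and Psmb10 joined H2-D1, Tap2 and Tapbp, which made 5, and the median difference over all tested genes was then -0.79, beside -0.06 as deposited.

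Within mouse 1168 members lay on both sides. Of 9 members measured there, at 1 FPKM or more in either cell, 4 had a log2 value lower by 1 or more in the CTC, against 24.9% of the 12396 genes measured, and 1 was higher, against 22.7%. H2-T23 differed by -3.64, B2m by -1.59, H2-K1 by -1.25 and Psmb8 by -1.05, while Psmb9 differed by 1.40. The median over the 9 was -0.59, beside 0.04 over all genes measured. Such a difference rests on a single library per side, with no replicate. With the cells rescaled to a common sum, the median of all genes moved to -0.17, and the 4 lower and the 1 higher stayed past the limit. With quantile normalization Psmb9 came to 0.74, under it. The nearly equal Psmb10 turned to -0.16 and -0.27 under these scalings.

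**Figure D2:**
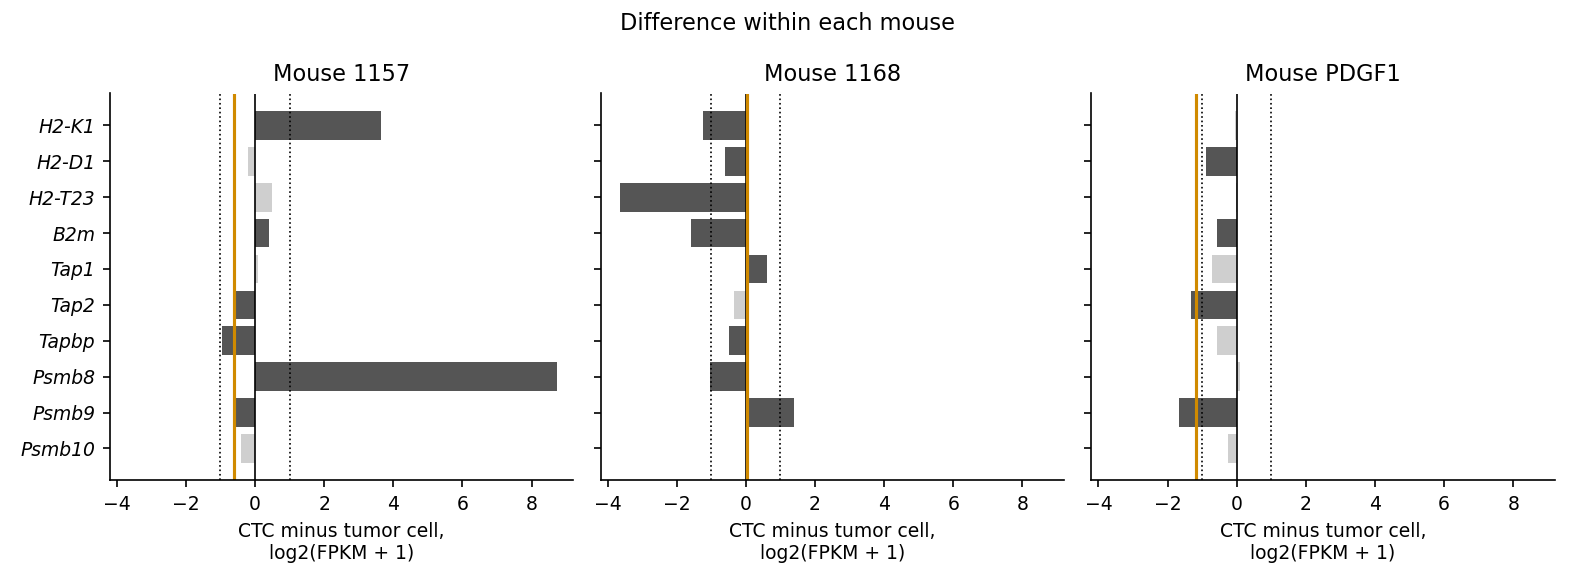
Difference between the CTC and the tumor cell of each mouse in log2(FPKM + 1), positive where the CTC is higher; dark bars are members at 1 FPKM or more in either cell, pale bars are below that in both, dotted lines mark a difference of 1 and the orange line is the median of all genes measured in that mouse. H2-T23 at -3.64 and Psmb9 at 1.40 are the ends of the range in mouse 1168, and Psmb8 at 8.74 stands out in mouse 1157.

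In mouse 1157, 6 members were measured. Psmb8 and H2-K1 were higher in the CTC by 8.74 and 3.65, 2 members where 29% of 5961 genes passed that limit, and 0 were lower, against 37.1%. In mouse PDGF1, 4 members were measured, and 2 were lower in the CTC, Psmb9 by 1.67 and Tap2 by 1.31, against 59.9% of 4042 genes. None was higher, against 23.7%. The all-gene median was -0.62 in mouse 1157 and -1.18 in mouse PDGF1, so a lower value in those CTCs is what most genes showed.

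Next to each other on the chromosome, Psmb9, Tap1, Psmb8 and Tap2 gave different pictures in mouse 1168. Of the divergent neighbours, Psmb9 was at 69.9 (CTC) against 25.8 (tumor cell) FPKM, a difference of 1.40, and Tap1 at 7.46 (CTC) against 4.49 (tumor cell), a difference of 0.62 that did not reach 1. With quantile normalization these differences came to 0.74 and 0.28. Psmb8, which begins just past the end of Tap1, was lower, at 50.8 (CTC) against 106 (tumor cell), and Tap2 was under background in both cells.

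**Figure D3:**
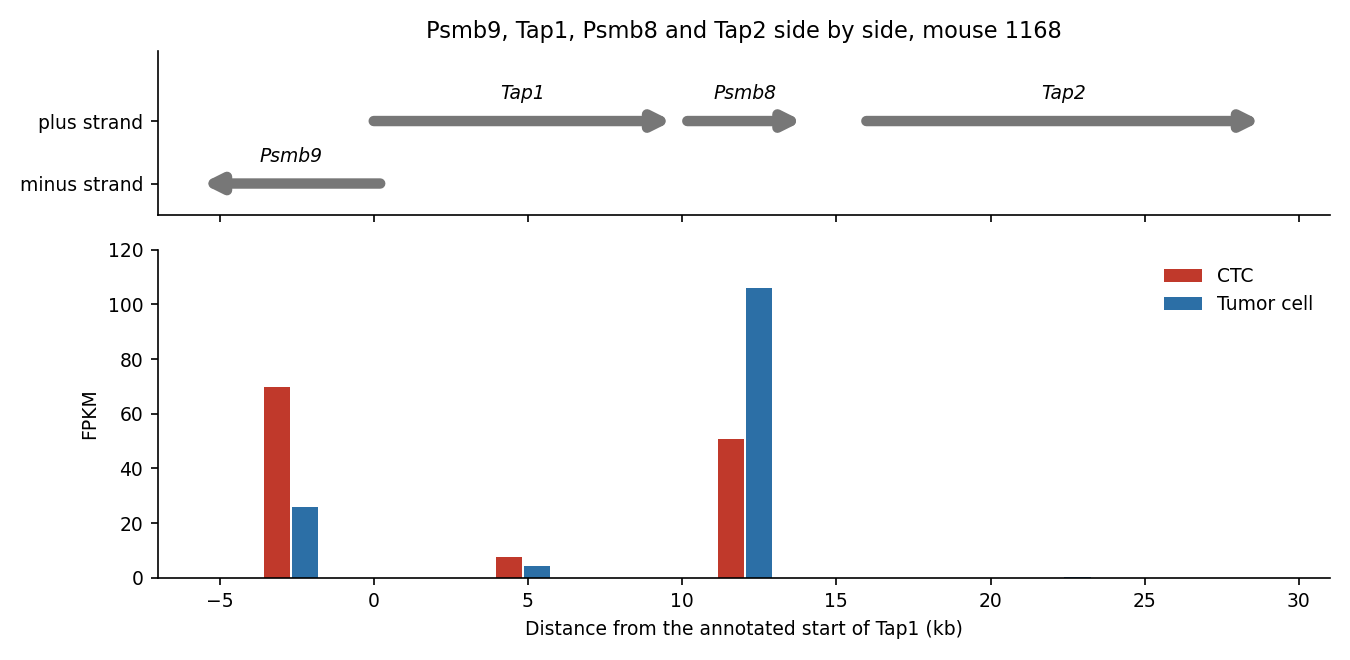
Upper panel, Psmb9, Tap1, Psmb8 and Tap2 as arrows in the direction of transcription, by distance in kb from the annotated start of Tap1; lower panel, FPKM of each gene in the CTC (red, left) and the tumor cell (blue, right) of mouse 1168. Bars for Psmb9 and Tap1 are taller in the CTC, those for Psmb8 in the tumor cell, and Tap2 is too low to see.

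The ratio of an immunoproteasome subunit to the subunit it replaces does not depend on the scaling of the cell. In the 1168 CTC, Psmb8 was 0.325 times Psmb5 (50.8 against 156 FPKM), and in its tumor cell 1.01 times (106 against 105). Psmb9 was 0.0429 times Psmb6 in the CTC and 0.0537 times in the tumor cell, since Psmb6 too was higher in the CTC, at 1631 (CTC) against 481 (tumor cell) FPKM. Psmb10 was 0.430 times Psmb7 in the CTC and 0.308 times in the tumor cell. Of the 3 pairs, Psmb8 and Psmb5 thus differed most between these cells, and Psmb9, for all its higher FPKM, kept nearly the same ratio.

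In the 1157 CTC the high Psmb8 came with Psmb5 at 541 FPKM and Psmb7 at 132, where its tumor cell had 0.532 and 0.0914. Psmb9, Psmb10 and Psmb6 were at 0.839, 0.0686 and 2.05 in that CTC. Of 7 housekeeping genes measured, 5 were higher in that CTC too by 1 or more, against 29% of all genes measured in mouse 1157. Their median difference was 3.34. The housekeeping list summed to 1455 FPKM in the CTC against 22.6 for the tumor cell. Of the CTC sum, Eef1a1 made 1217 and Actb 174, while Gapdh and Ubb differed by 0.22 and -0.04 on the log2 scale. The part of this rise in the Psmb8 value was not tested. The CTC therefore held high FPKM of 1 of the 3 immunoproteasome subunits and 2 of the 3 constitutive ones. In mouse PDGF1 all 6 subunits were at most 2.49 FPKM in either cell, under background.

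**Figure D4:**
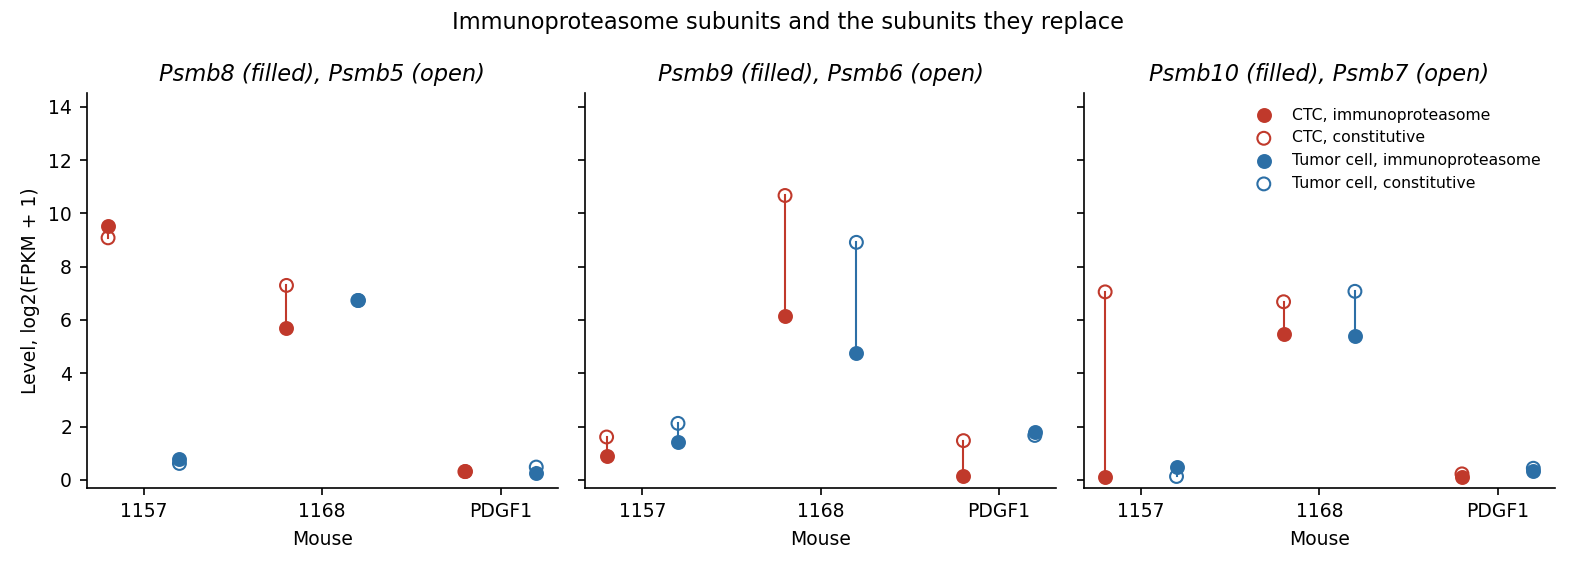
Level, log2(FPKM + 1), of each immunoproteasome subunit (filled) and of the constitutive subunit it replaces (open), joined by a line, in the CTC (red, left) and the tumor cell (blue, right) of each mouse. The filled and open points of Psmb8 and Psmb5 coincide in the 1168 tumor cell and lie apart in its CTC; in the 1157 CTC both are high.

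No proteasome or peptide loading partner was lower in the 1168 CTC by 1 or more, against 24.9% of all genes measured in mouse 1168. The share of all genes higher by 1 or more was 22.7%. Of 14 other proteasome genes measured there, 4 differed by 1 or more with the CTC higher and 0 with it lower, with a median of 0.34. Psme2, a subunit of the interferon-induced PA28 activator, was at 394 FPKM in the CTC against 150 (tumor cell), and its partner Psme1 at 87.2 (CTC) against 133 (tumor cell). Psmb4 and Psma3, structural subunits, were at 1458 (CTC) against 898 (tumor cell) and at 753 (CTC) against 373 (tumor cell). Of 11 peptide loading partners, 4 were higher and 0 lower, with a median of 0.33. The translocon subunit genes Sec61b and Sec61g were at 572 (CTC) against 274 (tumor cell) and at 141 (CTC) against 112 (tumor cell) FPKM, the chaperone genes Hspa5 and Canx at 159 (CTC) against 115 (tumor cell) and at 65.8 (CTC) against 75.7 (tumor cell). Picked out after their values were seen, Pdia3, a thiol oxidoreductase of the loading complex, was at 27.5 (CTC) against 2.49 (tumor cell), and Calr, the chaperone calreticulin, at 35.4 (CTC) against 68.2 (tumor cell).

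Regulators went both ways in mouse 1168, with 4 of 17 measured past a difference of 1 on the higher side of the CTC and 5 on the lower. Over all genes measured there the shares were 22.7% and 24.9%. Nlrc5, the transactivator of class I genes, was at 2.88 FPKM (CTC) against 2.39 (tumor cell) and Irf1, an interferon regulatory factor, at 1.04 (CTC) against 2.53 (tumor cell). The receptor subunit genes Ifnar2 and Ifngr2, for type I interferon and interferon gamma, were at 70.4 (CTC) against 17.5 (tumor cell) and at 36.7 (CTC) against 24.8 (tumor cell), and Rfxap, part of the complex that binds class I and class II promoters, at 67.5 (CTC) against 8.56 (tumor cell). Among the 5 lower, picked out after their values were seen, Irf9, Jak1, Rela and Ifngr1 differed by -2.90, -1.64, -1.64 and -1.36. Ifngr1, for the other interferon gamma receptor subunit, was at 0.280 (CTC) against 2.29 (tumor cell). Tyk2 and Rfxank, picked in the same way among the 4 higher, differed by 1.52 and 1.08. In mouse 1157, Irf1 was at 4.42 FPKM (CTC) against 0.711 (tumor cell). Nlrc5 was listed at 0 in 3 of the 4 cells of mice 1157 and PDGF1, the 1157 CTC having 0.196.

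Of 9 other class I and class I-like genes measured in mouse 1168, 2 were higher in the CTC by 1 or more and 3 lower. The shares over all genes were 22.7% and 24.9%, and the median of the list was -0.63. The 2 higher were the class I-like Cd1d1 and Fcgrt. Every H2 gene of the list measured there was lower in the CTC, a split made after the values were seen. H2-Q4, H2-Q6, H2-Q7, H2-T10 and H2-T22 differed by -2.21, -2.64, -0.72, -0.63 and -0.61. The nonclassical H2-T22 was at 18.6 FPKM in the CTC against 28.8 (tumor cell) and H2-Q7 at 13.2 (CTC) against 22.4 (tumor cell), while Cd1d1, which presents lipids, was higher, at 22.98 (CTC) against 2.89 (tumor cell). In the PDGF1 tumor cell, H2-Q2 was at 17.4 FPKM, above its receptor level of 7.02, against 0.0726 in the CTC. That was the one class I gene of the lists above background in either cell of that mouse. By limma, 0 of the 21 tested genes of the loading, proteasome, regulator and other class I lists were called, and 0 of them had an unadjusted p under 0.05.

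Microglia, macrophage and leukocyte markers were higher in the 1168 tumor cell than in its CTC. For the counts that follow, 24.9% of all genes measured in mouse 1168 were lower in the CTC by 1 or more, and 22.7% were higher. Of 14 microglia and macrophage markers, 5 reached 1 FPKM in the CTC, against 12 for the tumor cell, with sums of 244 FPKM for the CTC and 2495 for the tumor cell, and 11 of 12 measured had a CTC value lower by 1 or more. Lyz2 was at 174 (CTC) against 1202 (tumor cell), Ctss at 19.4 (CTC) against 672 (tumor cell), Tyrobp at 28.4 (CTC) against 346 (tumor cell) and Fcer1g at 18.4 (CTC) against 196 (tumor cell). Of 12 leukocyte markers, 1 in the CTC and 8 for the tumor cell reached 1 FPKM, with sums of 6.58 (CTC) and 319 (tumor cell). In the CTC Aif1, C1qa and Tmem119 were listed at 0 FPKM, and in the tumor cell none of the 14 was, although Cx3cr1 was at 0.03 there. Class II genes summed to 11.4 FPKM in the CTC, against 22.2 for the tumor cell, with H2-Aa at 0.0505 (CTC) against 8.03 (tumor cell), H2-Ab1 at 2.25 (CTC) against 5.91 (tumor cell) and Cd74, the class II chaperone, at 0 (CTC) against 0.571 (tumor cell). H2-DMa, which helps load class II molecules, ran the other way, at 7.79 (CTC) against 2.93 (tumor cell), and of 5 class II genes measured 1 was higher in the CTC and 3 lower. Microglia also express class I genes, and the part of these transcripts in the lower heavy chain and B2m values of that CTC was not tested. Glioma and oligodendrocyte progenitor markers ran the other way, with 7 of 10 higher in the CTC, 1 lower and sums of 492 FPKM (CTC) and 254 (tumor cell). Erythroid and platelet markers summed to 68.3 (CTC) and 6.17 (tumor cell), of which the integrin gene Itga2b alone made 67.99 (CTC) and 6.09 (tumor cell), with each of the other 6 markers at 0.182 FPKM or less. Endothelial markers summed to 0.165 (CTC) and 5.91 (tumor cell). Housekeeping genes stood level, with 0 of 8 past a difference of 1 and a median of -0.03.

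**Figure D5:**
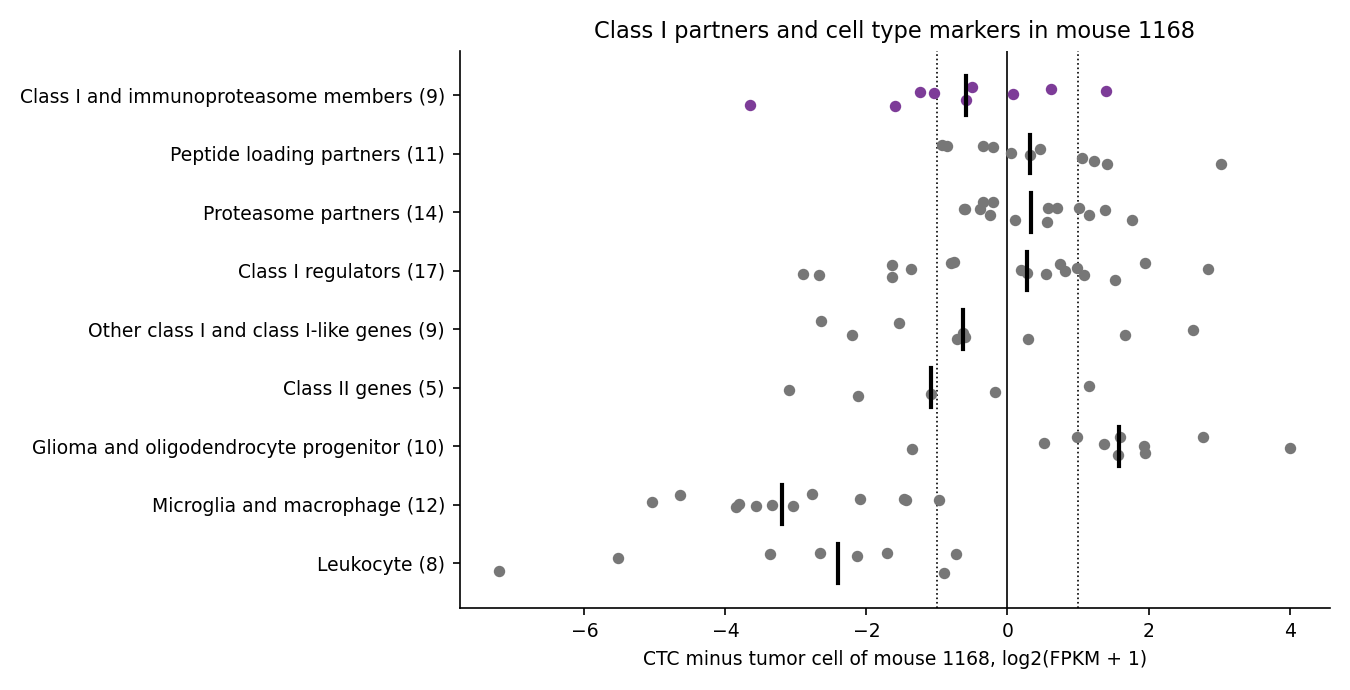
Difference between the 1168 CTC and the 1168 tumor cell in log2(FPKM + 1) for the members (purple) and for each list of partners or markers (grey); each point is a gene at 1 FPKM or more in either cell, black bars are medians, the number measured stands after each name and dotted lines mark a difference of 1. The members have a median of -0.59, proteasome partners 0.34 and microglia and macrophage markers -3.19.

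In the other mice each of those lists summed to at most 26.02 FPKM in a cell, but some markers lay above background. In the 1157 tumor cell, with a receptor level of 1.58, Aif1, Lyz2 and Trem2 were at 4.82, 2.38 and 1.84 FPKM. Cd52, Laptm5 and Lcp1 were at 2.08, 2.03 and 1.62 there. In the PDGF1 tumor cell Lyz2 was at 17.7 FPKM, against a receptor level of 7.02. Csf1r and Lyz2 were at 1.21 and 1.10 in the 1157 CTC, against 0.885. The microglia and macrophage list summed to 5.02 FPKM in the 1157 CTC against 12.9 for its tumor cell, and to 2.24 in the PDGF1 CTC against 26.02 for its tumor cell. The leukocyte list summed to 13.99 FPKM in the 1157 CTC against 9.05 for its tumor cell, and to 3.32 in the PDGF1 CTC against 1.27 for its tumor cell. In the 1157 CTC, with H2-K1 at 14.04 FPKM, Laptm5 alone made up 9.81 of the leukocyte sum, and its part in that H2-K1 value was not tested.

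Across the 6 cells, 8 members tracked the mean of the other 9 on the log2 scale with a Pearson r from 0.894 to 0.978, given as a description, since the cells of mouse 1168 are high for most genes. Psmb8 had an r of 0.526 and Tap2 of -0.509. The genes whose levels were most like the mean of the members were Cdk2ap1, Mfn2, Ncoa6, Hadha and Shisa5, each with an r of 0.997 over 6 cells among 3769 genes ranked, and 48 genes had an r over 0.99.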

How the data were processed

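RNA of 6 mouse cells was amplified linearly before stranded mRNA libraries were made, per the labels' protocols. The authors deposited FPKM per gene, per the name of their table, and STAR 2.4.2a and Cufflinks 2.2.1 are listed with build GRCm38 per the submitters' processing notes. Read depth is unknown, so no counting interval is given, and a value of 0 is only listed at 0. Of 45038 rows, 27 with names turned into dates and 211 with repeated names, 4 of them in both classes, were left out.

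Levels were compared as log2(FPKM + 1), which understates changes of low genes, for genes that reached 1 FPKM in 3 or more of the 6 cells. The two-sided test was limma 3.58.1 (R 4.3.3) with a mean-variance trend, no block, and Benjamini-Hochberg adjustment at 0.05. On simulated data it recovered changed genes where the spread was small, and none at the spread of these cells. The mouse is the replicate, and the labels pair the cells by animal; same-mouse deviations correlated at 0.178, 0.689 and 0.428 in mice 1157, 1168 and PDGF1, and those of different mice from -0.622 to 0.422, the highest for the PDGF1 CTC with the 1157 tumor cell. Within each mouse a difference of 1 was the limit. Alternatives were other pseudocounts, filters, scalings, limits, the block and left-out cells. Python 3.11.15, numpy 2.4.6, pandas 2.3.3 and matplotlib 3.10.9 were used.

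The members, lists, named-gene rule and motifs were chosen with earlier results of these data known. Named were all members, up to 4 genes of highest mean FPKM per list, 10 preset partners and regulators, and the 5 genes most like the members' mean. The values of 1 of the preset genes are not reported here. Ciita, the class II transactivator and one of the preset genes, was at 0.0187 FPKM in the 1168 CTC, against 0.0211 for its tumor cell.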

Additional observations from a re-analysis of the deposited data

How the results depend on the processing

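No call of a member depended on a setting, as none was called under any. That does not show stability, since on simulated data the main fit recovered no changed gene at the spread of these cells. With the mouse as replicate block, a paired fit, limma called 1 gene, lower in CTCs and no member; members had adjusted p from 0.935 to 0.998 by limma in that fit. With no filter, 0 of 32679 genes were called. Of the member differences under all alternatives, 145 kept their direction and 25 turned, all when cells were left out. The 145 include the other filters, the fit without a trend and the block, which leave a difference unchanged by design and could not turn it. Leaving out 1 cell or 1 mouse moved the difference from -3.13 to 2.45 for B2m, -2.52 to 1.40 for H2-D1, -0.65 to 2.92 for H2-K1, -2.25 to 1.29 for H2-T23, -1.99 to 1.47 for Psmb10, -0.47 to 5.02 for Psmb8, -2.15 to 0.86 for Psmb9, -0.96 to 0.64 for Tap1 and -1.65 to 0.22 for Tapbp. Tap2 stayed negative, from -1.19 to -0.40. Of the counts within mice, members lower in the CTC of mouse 1157 came to 1 with pseudocounts of 0.1 and 0.5, 4 with cells rescaled to TPM and 1 with quantile normalization. With a limit of 2, the 1168 CTC had 0 members higher and 1 lower, and the PDGF1 CTC 0 lower. With quantile normalization 0 were higher in the CTC of mouse 1168. The cause of these shifts was not tested. At the 95th percentile of receptor genes, 7, 10 and 6 members passed in the 1157, 1168 and PDGF1 CTCs, against 6, 9 and 4 for the matching tumor cells. With 3 cells a group, only mouse 1168 held most members above the 99th percentile of receptor genes. At the 95th percentile both cells of mouse 1157 and the PDGF1 CTC did so too.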
